A study of Mus musculus with 3 samples.

Results

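The amino acid and neurotransmitter transporters are the mouse genes of 7 solute carrier families, Slc1a, Slc3a, Slc6a, Slc7a, Slc36a, Slc38a and Slc43a. Members were taken by symbol alone: a family prefix, a number and at most 1 trailing letter, with antisense ("os") and pseudogene ("ps") symbols left out. This gave 63 of the 32285 features, of which 7 belong to Slc1a, 2 to Slc3a, 21 to Slc6a, 15 to Slc7a, 4 to Slc36a, 11 to Slc38a and 3 to Slc43a. The rule uses no measured value. Slc7a9 alone had no UMI (a counted transcript molecule) in any kept cell, and the 8 least detected members after it had between 1 and 27 UMIs among 23021 cells.

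The series concerns syngeneic mouse models of diffuse midline glioma, a tumour of the brainstem and midline, and measured transcripts of single cells with droplet chemistry. The tumour group holds 2 libraries of brainstem from B6(Cg)-Tyrc-2J/J mice that were 6 weeks old when 100000 DIPG4423 cells were placed in the brain, taken 3 weeks later from mice given no treatment. DIPG4423 is a single murine tumour line, so both grafts share 1 origin, and the hosts keep their own brain and immune cells. The normal group is 1 library of brainstem without a tumour, from the same mouse strain and with the same protocol text. The titles call the tumour libraries "Control", the labels give no treatment for any library, and the titles name a different mouse for each library. In all 3 libraries the mice were perfused, myelin was depleted with beads and red blood cells were lysed.

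Excitatory glutamate is cleared from synapses mainly by sodium-driven Slc1a carriers of astrocytes, and GABA and glycine by Slc6a carriers. The heterodimeric exchangers pair a heavy chain, Slc3a2 (CD98), with an Slc7a light chain that sets which amino acids pass; the pair with Slc7a5 (LAT1) carries large neutral amino acids across the blood-brain barrier, and the pair with Slc7a11 (xCT) exchanges cystine for glutamate. Slc38a carriers move glutamine between astrocytes and neurons, and Slc36a and Slc38a9 act at the lysosome.

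Kept cells numbered 10551 and 9391 in the tumour libraries and 3079 in the normal library, with medians of 8791 UMIs per cell in tumour 1, 11284 in tumour 2 and 2394 in normal. Barcodes past the limit on mitochondrial UMIs were 9.71% and 9.57% in the tumour libraries and 26.3% in the normal library, so depth and RNA quality moved with the group and their part in the results was not tested. Between 8 and 30 kept barcodes were shared by each pair of libraries, which is few beside the cells kept. Cells were clustered on genes other than the transporters and named from fixed markers, so a class is called X-like. Summed levels of the defining markers were close between libraries in astrocyte-like cells (17351 and 16731 CPM in tumour, 18304 in normal) and in neuron-like cells (60819.7 and 60917 in tumour, 54185 in normal). They were lower in tumour for microglia-like cells (7833 and 10120.5 against 19036), endothelial-like cells (7193 and 7040 against 16099.9) and neutrophil-like cells (130999.7 and 122396 against 347696). Glial progenitor-like cells, with 4385 and 2098 cells, occurred in the tumour libraries alone. Some clusters of low UMI count stayed unnamed and are in no class. In 1 of these, best matched by progenitor markers, there were 644 and 296 tumour cells and 21 normal cells. Another, best matched by astrocyte markers, held 128 and 20 tumour cells and 103 normal cells.

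Levels are counts per fixed total (CPM), that is, the UMIs of a gene scaled to a total of 1000000 UMIs for the class in that library. Each UMI counts a molecule from its 3′ end, so levels compare molecules between genes and need no length. Astrocyte-like cells held the most transporter RNA of the classes summed: all 63 members together reached 14219.5 and 13416 CPM in the tumour libraries and 15676 in the normal library. Endothelial-like cells had 2265 and 2924 in tumour against 7543 in normal, and Slc6a6 was the top member of normal ones, at rank 31 among all genes. Glial progenitor-like cells had 2453 and 2268, neuron-like cells 2434 and 2351 in tumour against 2828 in normal, and microglia-like cells 1972 and 1816 in tumour against 2564 in normal. Neutrophil-like cells ran the other way, with 1297 and 1170 in tumour against 699 in normal. These sums are scaled by the class total alone, so they also carry shifts shared by all genes. With that scaling the median log2 change of all genes was −0.41 in microglia-like and 0.68 in neutrophil-like cells. It was −0.19 in endothelial-like and −0.07 in neuron-like cells.

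**Figure D1:**
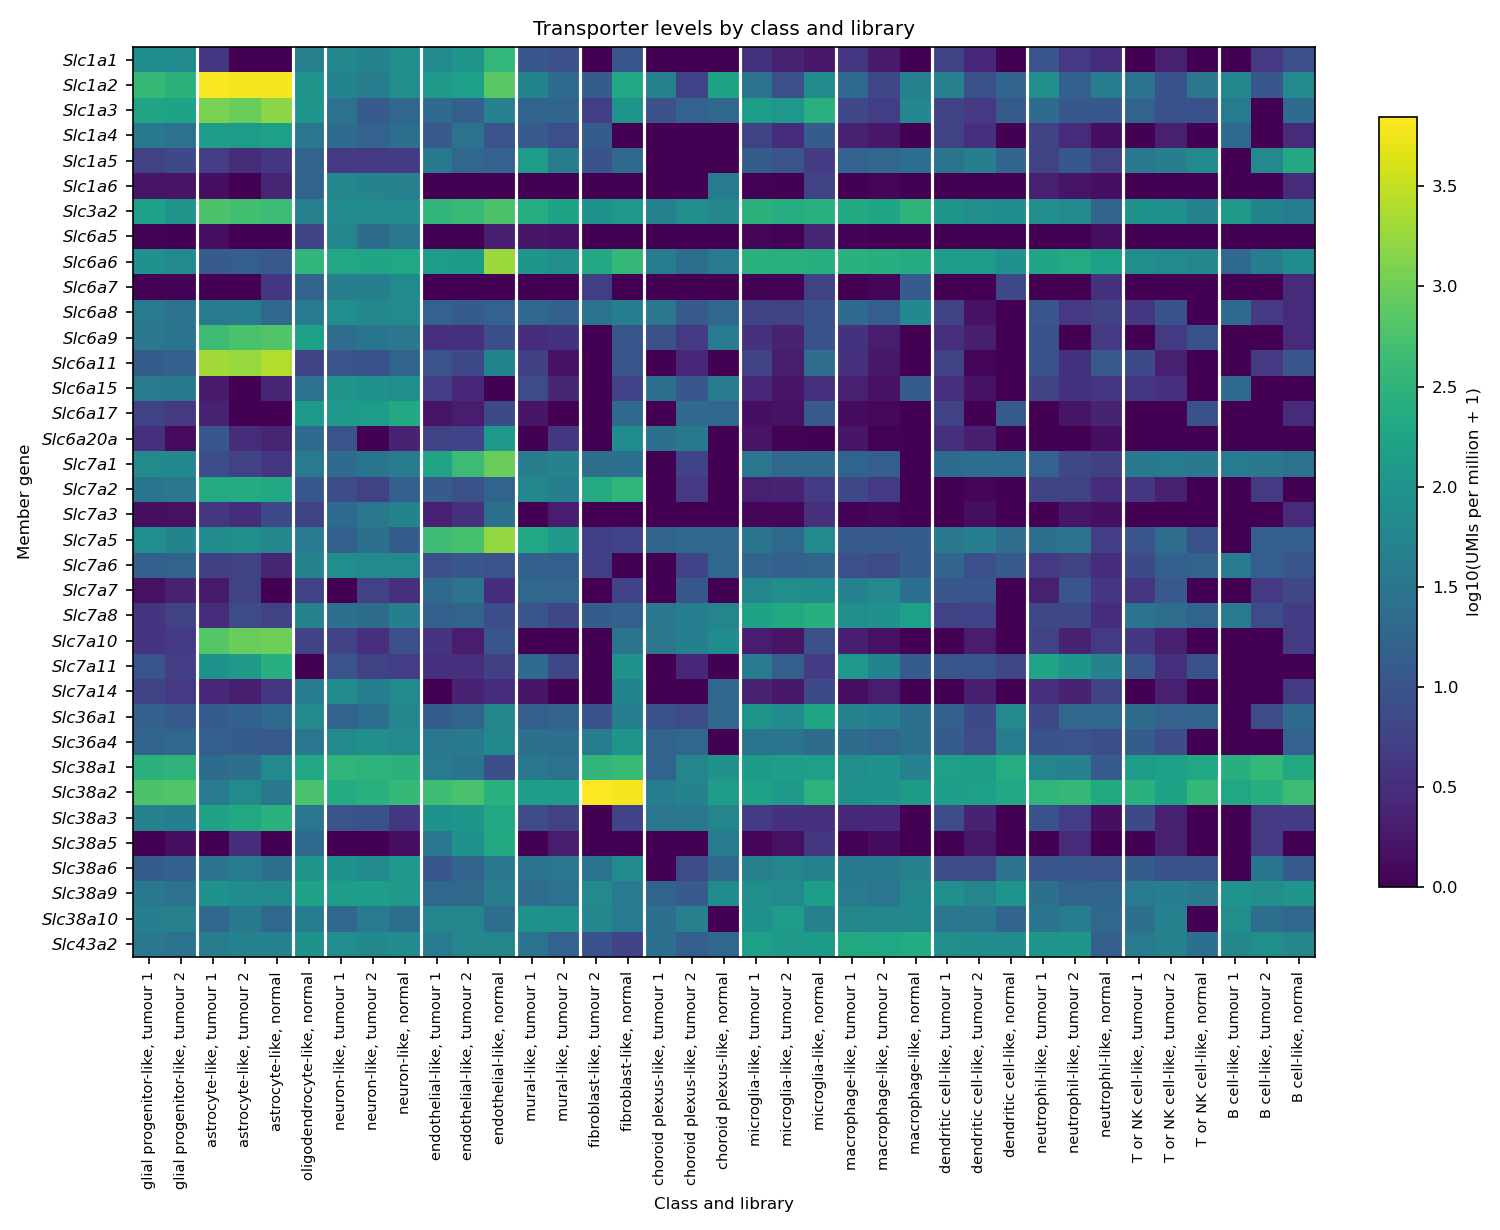
Heat map of 36 members that reached 50 CPM in at least 1 column, by class and library, with colour giving log10 of CPM plus 1. Slc1a2, Slc1a3, Slc6a11 and Slc6a9 are brightest in astrocyte-like columns, Slc7a5 and Slc6a6 in the normal endothelial-like column, and Slc38a2 in the fibroblast-like columns.

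Of the glutamate carriers, Slc1a2 and Slc1a3 were highest in astrocyte-like cells. Slc1a2 (GLT-1), the main glutamate carrier of astrocytes, stood at 6493 and 5944 CPM in the tumour libraries and 6199.8 in the normal library, and ranked between 11 and 12 among all genes of that class. Slc1a3 (GLAST) stood at 1201 and 944 in tumour and 1489 in normal. Of the UMIs of the 5 glutamate carriers in astrocyte-like cells, Slc1a2 took 84.4% and 86.3% in tumour and 80.6% in normal. Over the whole class Slc1a2 also led this set in endothelial-like and glial progenitor-like cells, as given below. In microglia-like and neuron-like cells other members held larger shares than in astrocyte-like cells. In microglia-like cells Slc1a3 took 82.9% and 92.4% in tumour and 78.3% in normal. In neuron-like cells Slc1a1 (EAAT3, the neuronal carrier) took 30.1% and 33.3% in tumour and 35.8% in normal, and Slc1a6 (EAAT4, known from Purkinje cells) took 30.1% and 33.3% in tumour and 20.8% in normal. Slc1a7, a carrier of the retina, had 5 UMIs in all kept cells.

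Carriers of inhibitory transmitters also peaked in astrocyte-like cells. Slc6a11 (GAT-3), the astrocytic GABA carrier, had 2084 and 1792 CPM in tumour and 2552 in normal. Slc6a9 (GlyT1), the glial glycine carrier, had 427 and 546 in tumour and 638 in normal astrocyte-like cells. Slc6a5 (GlyT2), the carrier of glycinergic neurons, was a neuronal gene here, at 57.8 and 22.2 in tumour and 33.3 in normal neuron-like cells. Neuron-like cells further held Slc6a17 (NTT4, a synaptic vesicle carrier of neutral amino acids) at 116 and 132 in tumour and 216 in normal, and Slc6a15 (a neuronal neutral carrier) at 99.9 and 86.4 in tumour and 81.8 in normal. Slc6a7, the brain proline carrier, had 43.8 and 45.5 in tumour and 67.4 in normal neuron-like cells.

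The light chain that led the partners of Slc3a2 differed by class. Among UMIs of 6 light chains (Slc7a5, Slc7a6, Slc7a7, Slc7a8, Slc7a10 and Slc7a11), Slc7a10 (Asc-1, a serine and glycine exchanger) took 80.0% and 82.0% in tumour and 74.7% in normal astrocyte-like cells. Slc7a5 took 90.6% and 90.2% in tumour and 98.1% in normal endothelial-like cells, and 75.5% and 73.0% in mural-like cells of the tumour libraries. Astrocyte-like and vascular classes thus had different leading chains, and immune classes had others again. Slc7a8 (LAT2) led microglia-like cells with 55.0% and 63.1% in tumour and 62.0% in normal. Slc7a11 led neutrophil-like cells with 80.9% and 68.4% in tumour and 77.9% in normal, and neuron-like cells were led by Slc7a6 (y+LAT2) with 59.5% and 52.3% in tumour and 49.0% in normal. Glial progenitor-like cells were led by Slc7a5, with 71.8% and 64.5%. The leading chain of these classes was the same in each of their libraries.

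**Figure D2:**
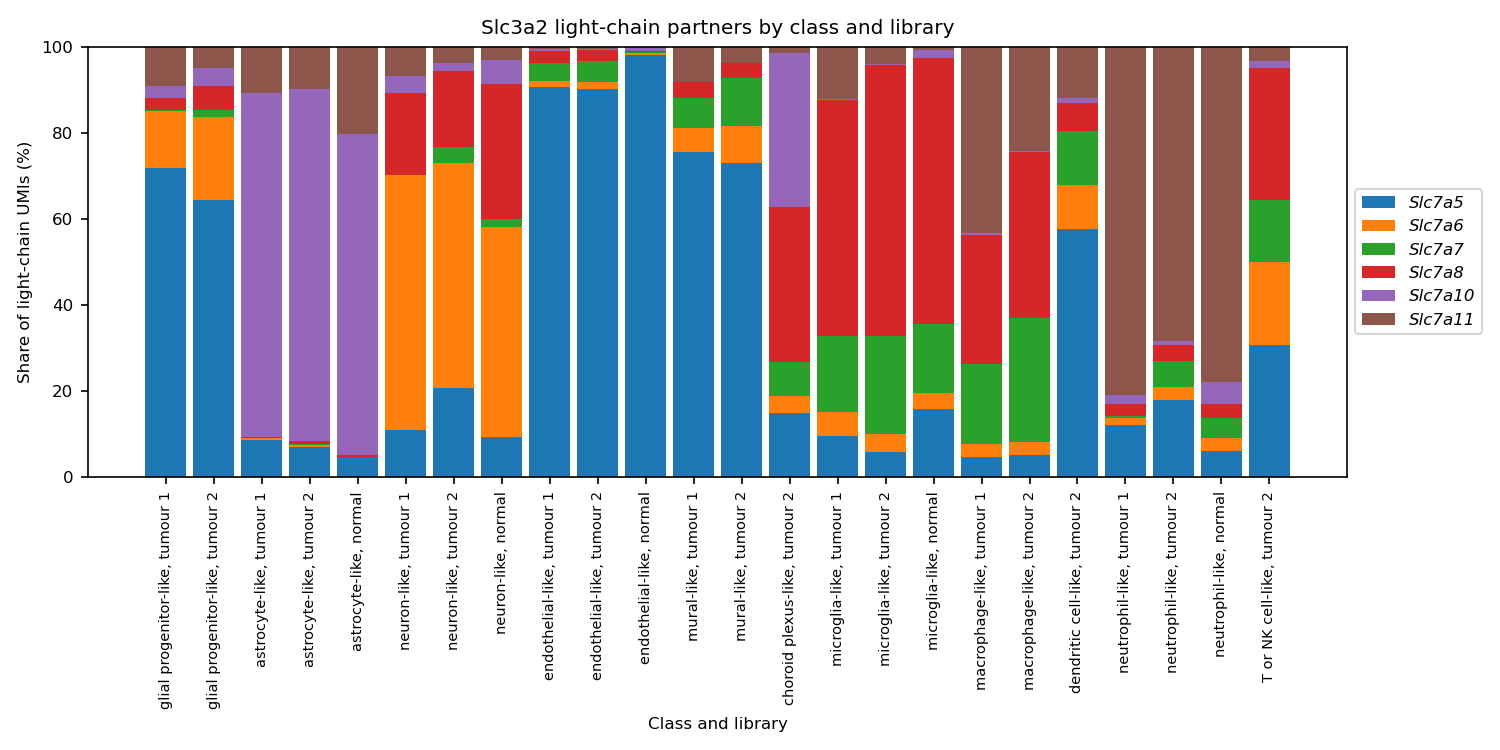
Stacked bars of the share (percent) of light-chain UMIs taken by each Slc7a light chain, for each class and library with at least 50 such UMIs. Slc7a10 fills most of the astrocyte-like bars, Slc7a5 the endothelial-like, mural-like and progenitor-like bars, Slc7a8 the microglia-like bars and Slc7a11 the neutrophil-like bars.

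The cationic carriers, which bring in arginine and lysine, were divided in a similar way. Slc7a2 (CAT2) took 95.6% and 97.2% of their UMIs in tumour and 95.7% in normal astrocyte-like cells. Slc7a1 (CAT1) took 93.2% and 97.7% in tumour and 95.7% in normal endothelial-like cells. Among the glutamine carriers, Slc38a3 (SNAT3, which releases glutamine from astrocytes) had 162 and 218 CPM in tumour and 282 in normal astrocyte-like cells. Slc38a1 (SNAT1, which takes glutamine up in neurons) had 324 and 312 in tumour and 296 in normal neuron-like cells. Slc38a2 (SNAT2) was highest in fibroblast-like cells, at 7058 in tumour 2 and 6183 in normal, against 36.5 and 67.2 in tumour and 33.8 in normal astrocyte-like cells.

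Promoters are printed for Slc7a11, which was called in microglia-like and astrocyte-like cells below, and Slc1a4 (ASCT1, a serine and alanine exchanger), because both hold TGATGNAA, the form of the C/EBP-ATF response element that ATF4 binds in amino acid shortage. The windows are RefSeq GRCm38.p6 and run from 250 bases before to 50 after the gene start, read 5′ to 3′ on the gene's strand, with TGATGNAA on either strand in capitals. Slc7a11 lies on the minus strand with its window at chr3:50443564-50443863, and Slc1a4 on the minus strand with its window at chr11:20332664-20332963.
Slc7a11: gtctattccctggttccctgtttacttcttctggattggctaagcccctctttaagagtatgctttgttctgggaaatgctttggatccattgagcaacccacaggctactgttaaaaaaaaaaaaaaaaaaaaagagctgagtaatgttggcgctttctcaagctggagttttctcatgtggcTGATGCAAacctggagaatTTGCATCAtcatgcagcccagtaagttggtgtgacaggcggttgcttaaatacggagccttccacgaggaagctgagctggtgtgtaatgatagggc
Slc1a4: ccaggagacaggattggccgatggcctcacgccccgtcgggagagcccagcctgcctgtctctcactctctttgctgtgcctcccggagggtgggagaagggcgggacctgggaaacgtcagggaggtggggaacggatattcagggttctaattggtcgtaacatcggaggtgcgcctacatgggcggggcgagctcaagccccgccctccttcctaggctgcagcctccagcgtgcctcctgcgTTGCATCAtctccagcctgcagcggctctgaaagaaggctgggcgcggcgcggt
The Slc7a11 window held 2 matches, at positions 185 and 204 counted from its 5′ end, and the Slc1a4 window held 1 at position 247. Windows were given for 45 members, 66 windows in all. TGATGNAA was in 7.58% of them, from 4 members (Slc7a11, Slc1a4, Slc7a7 and Slc6a21), against 3.97% of all 32851 windows. On either strand, the antioxidant response core TGACNNNGC was in 16.7% of member windows and 12.4% of all, and the E box CACGTG in 13.6% and 7.15%. The hypoxia element ACGTG, which every CACGTG contains, was in 30.3% of member windows and 19.6% of all. Neither printed window held those 3 motifs. A match describes letters only.

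The first comparison set whole tumour libraries against the whole normal library, with edgeR's quasi-likelihood test at an adjusted p of 0.05. Fewer cells of a type and less RNA per cell cannot be told apart in these sums. Of 55 members tested, 3 were higher and 13 lower in tumour, 29.1% against 20.9% of all 20467 genes tested (12.7% higher and 8.13% lower). Of all calls 61.0% were higher in tumour with TMM scaling and 30.7% with library size alone. The members' median log2 change was −0.39 and that of all genes 0.14; 2 members had no normal UMI, and holding them at 3 counts left the median at −0.39. The Slc6a family accounted for 8 of the 13 lower members, with 18 of its 21 genes tested.

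The lower members included carriers of neurons and of glia. Slc6a17 had 4.07 and 2.66 CPM in tumour against 49.0 in normal (log2 −3.32 ± 0.36 SE, adjusted p = 0.0119, edgeR). Slc6a7 had 0.235 and 0.371 against 15.7 (log2 −5.12 ± 0.60, adjusted p = 0.0130, edgeR), and Slc6a5 had 0.334 and 0.172 against 7.33 (log2 −4.31 ± 0.67, adjusted p = 0.0183, edgeR). Both tumour libraries lay far below the normal library for each. The monoamine carriers, which return dopamine and serotonin to nerve endings, rested on few molecules. Slc6a3 (dopamine) had 2 and 3 UMIs in tumour and 32 in normal, and Slc6a4 (serotonin) had 0.0925 and 0.0893 CPM in tumour against 6.42 in normal (log2 −6.72 and −5.57, adjusted p = 0.0140 and 0.0131, edgeR). Among glial members, Slc7a10 had 14.6 and 8.34 in tumour against 78.6 in normal (log2 −2.24 ± 0.36, adjusted p = 0.0194, edgeR), and Slc6a11 had 44.5 and 18.7 against 172 (log2 −1.92 ± 0.47, adjusted p = 0.0463, edgeR). The Slc6a11 call was lost with DESeq2 (adjusted p = 0.0876). Slc7a3 (CAT3), Slc38a11, Slc1a6, Slc6a13, Slc6a16 and Slc7a14 were also lower, by log2 −2.03 to −4.00. Without tumour 1 the changes of Slc6a11 and Slc6a5 were −2.72 and −4.92, and without tumour 2 those of Slc38a11 and Slc6a13 were −4.49 and −3.55, from −3.47 and −2.85. Neuron-like cells made up 171 and 307 of the kept tumour cells and 600 of the fewer normal cells, and astrocyte-like cells 451 and 123 against 194.

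The 3 higher members were Slc38a10, Slc6a19 and Slc38a1. Slc38a10, a broadly expressed amino acid carrier, had 51.1 and 68.1 CPM in tumour against 25.1 in normal (log2 1.82 ± 0.37, adjusted p = 0.0295, edgeR). Slc6a19 (B0AT1, a neutral carrier of gut and kidney) had 411 and 406 UMIs in tumour and 2 UMIs in normal. The ratio of levels was 15.8 (95% interval from counting error, 4.35 to 130.5; adjusted p = 0.0259, edgeR). Slc38a1 had 236 and 202 in tumour against 134 in normal (log2 1.26 ± 0.30, adjusted p = 0.0412, edgeR), a call lost when sums were scaled by library size alone (log2 0.71, adjusted p = 0.156).

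Within classes, endothelial-like cells had the most members called. Of 34 members tested, 5 were higher and 13 lower in tumour, 52.9% against 32.8% of 11547 genes (19.0% higher and 13.8% lower), with a median log2 change of −0.95 against 0.04 for all genes. Higher calls were 57.9% of all calls with TMM and 44.7% with library size alone. The sums rest on 75 and 220 tumour cells and 144 normal cells. They are 1 cluster, but at Leiden resolution 2.0 different clusters held most cells of each group. Cluster 34 there, with Ctla2a, Cldn5, Apln and Angpt2 among its top genes, held 61 and 151 tumour cells and 0 normal cells. Cluster 25, with Slco1a4, Ly6c1 and Abcb1a among its top genes, held 14 and 70 tumour cells and 144 normal cells. Values of the members over the class are therefore followed by those of cluster 25 alone. The lower members included carriers that mark the blood-brain barrier. Slc6a6 (TauT), the taurine carrier, at chr6:91684053-91759066 on the plus strand of GRCm38, had 133 and 126 CPM in tumour against 1855 in normal (log2 −3.61 ± 0.23, adjusted p = 2.47e-06, edgeR). Cells with at least 1000 UMIs were then thinned to 1000, and cells below that were left out. Of endothelial-like cells so thinned, 11.9% (exact 95% interval 4.91 to 22.9) and 18.0% (12.9 to 24.2) in tumour held an Slc6a6 UMI. In normal the share was 74.6% (66.7 to 81.6). In astrocyte-like cells, where Slc6a6 is scarce, the thinned shares were 1.11% and 0.82% in tumour and 1.05% in normal. Unthinned median depths were 8439 and 20724 UMIs in tumour and 5263.5 in normal endothelial-like cells, and 4698 and 7257 in tumour and 2968.5 in normal astrocyte-like cells.

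Slc7a5, the light chain of the barrier's large neutral carrier, had 454 and 527 CPM in tumour against 1674 in normal endothelial-like cells (log2 −1.54 ± 0.22, adjusted p = 0.000283, edgeR). Its heavy chain Slc3a2 had 338 and 399 in tumour against 603 in normal and did not pass (log2 −0.48 ± 0.23, adjusted p = 0.135, edgeR). Both chains were lower in each tumour library than in normal. Slc7a1, the arginine carrier, had 175 and 439 in tumour against 922 in normal (log2 −1.34 ± 0.37, adjusted p = 0.0162, edgeR), and tumour 1 lay well below tumour 2. With DESeq2 this call was lost (adjusted p = 0.392), and without tumour 2 the change was −2.16. Slc38a5 (SNAT5), found at its highest in endothelial-like cells, had 30.9 and 95.3 in tumour against 219 in normal (log2 −1.48 ± 0.42, adjusted p = 0.0177, edgeR), with the same split between the tumour libraries (DESeq2 adjusted p = 0.396; −2.59 without tumour 2).

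All 3 tested glutamate carriers were lower in tumour endothelial-like cells over the class. Slc1a2 had 114 and 147 CPM in tumour against 738 in normal (log2 −2.26 ± 0.24, adjusted p = 3.37e-05, edgeR), and Slc1a1 had 65.9 and 97.3 against 355 (log2 −1.87 ± 0.26, adjusted p = 0.000206, edgeR). Slc1a3 had 21.0 and 14.4 against 47.1 (log2 −1.24 ± 0.38, adjusted p = 0.0246, edgeR), a call lost with DESeq2 (adjusted p = 0.147). Over the class Slc1a2 took 56.7% and 56.8% of the set in tumour and 64.7% in normal, but the clusters differed. In tumour cells of cluster 34 Slc1a1 led, with 85 and 517 UMIs against 61 and 158 for Slc1a2. In cluster 25 Slc1a2 led, with 134 and 982 UMIs in tumour against 28 and 238 for Slc1a1, and 690 against 332 in normal. Over the class, Slc6a20a, a proline carrier, had 4.67 and 5.03 CPM in tumour against 110.1 in normal (log2 −4.25 ± 0.34, adjusted p = 8.15e-06, edgeR). It lies at chr9:123634770-123678885 beside its near-identical copy Slc6a20b, at chr9:123590800-123632565, so reads may be divided between the copies and the value is uncertain. Slc6a11, Slc7a3, Slc38a11, Slc36a1 (a lysosomal proton-coupled carrier) and Slc38a3 were lower too, by log2 −0.74 to −3.32, and Slc7a3 by −4.13 without tumour 2.

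The 5 higher members in tumour endothelial-like cells belonged to other groups. Slc38a2, an amino acid carrier induced in amino acid shortage, had 442 and 556 CPM in tumour against 272 in normal (log2 1.11 ± 0.26, adjusted p = 0.00624, edgeR). Slc38a1 had 37.9 and 30.8 against 7.49 (log2 2.40 ± 0.49, adjusted p = 0.00257, edgeR), and Slc38a10 had 56.6 and 55.2 against 23.5 (log2 1.47 ± 0.35, adjusted p = 0.00671, edgeR). Slc43a3, a nucleobase carrier in human cells, had 23.9 and 21.2 against 5.35 (log2 2.28 ± 0.56, adjusted p = 0.00807, edgeR; 0.0515 with DESeq2). Slc7a7 (y+LAT1) had 20.4 and 28.1 against 2.14, where the normal library held 2 UMIs; the ratio was 12.5 (counting interval 3.42 to 104; adjusted p = 0.00145, edgeR).

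Within cluster 25 alone, 11 of 30 tested members were called, 4 higher and 7 lower in tumour, where 18.9% of all genes were called; tumour 1 rests on 14 cells. Slc7a5 had 482 and 587 CPM in tumour against 1674 in normal (log2 −1.51, adjusted p = 1.84e-07, edgeR), close to its change over the class. Slc6a6 had 954 and 569 against 1855 (log2 −1.20, adjusted p = 6.69e-05, edgeR), a smaller change than over the class, and tumour cells of cluster 34 had 21.2 and 33.1. Slc6a20a had 34.1 and 29.0 against 110.1 (log2 −1.76, adjusted p = 3.56e-06, edgeR). Slc1a1, Slc7a1 and Slc38a5 were also lower and Slc38a1, Slc38a10, Slc7a7 and Slc7a8 higher in cluster 25, past the test; Slc7a8 was not called over the class.

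Other calls of the class did not hold in cluster 25. Slc1a2 had 652 and 730 CPM in tumour against 738 in normal (log2 0.03, adjusted p = 0.957, edgeR), and 40.4 and 24.7 in tumour cells of cluster 34. Slc38a2 went the other way, at 77.9 and 169 against 272 in cluster 25 (log2 −0.85, adjusted p = 0.0189, edgeR), while tumour cells of cluster 34 had 491 and 637. Slc1a3, Slc6a11, Slc36a1, Slc38a3, Slc38a11, Slc7a3 and Slc43a3 missed the threshold there (adjusted p = 0.0589 to 0.837, edgeR).

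**Figure D3:**
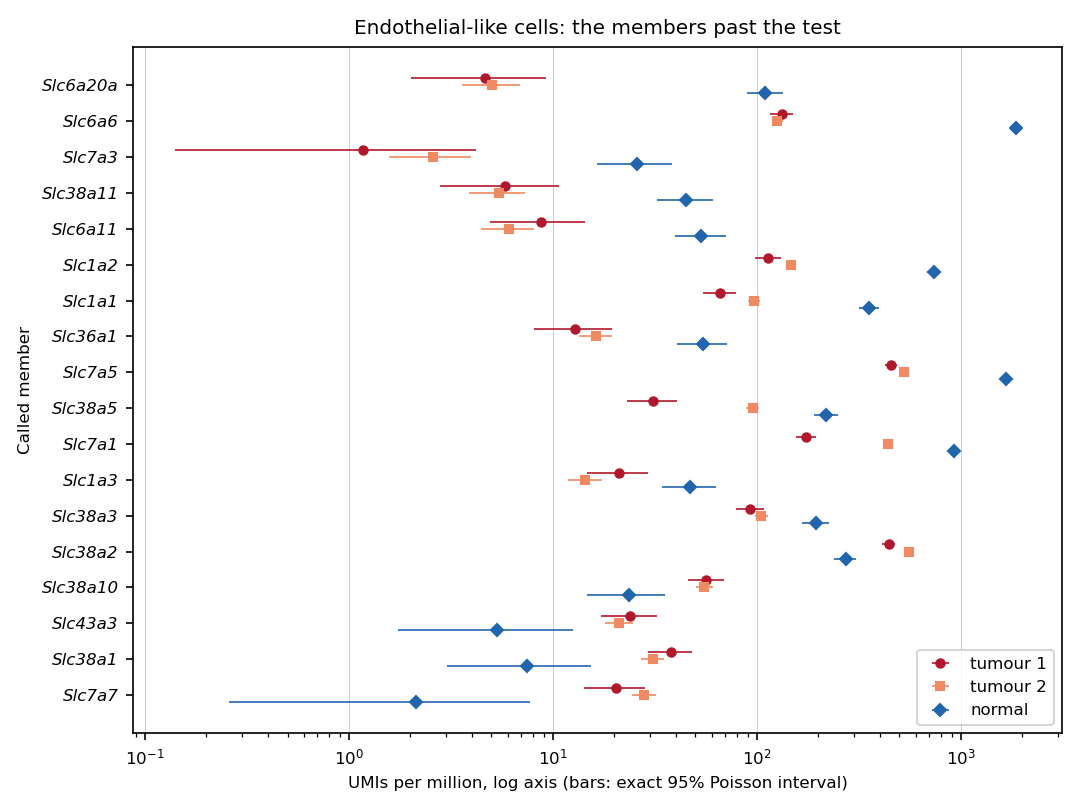
CPM (log axis) of the 18 called members in endothelial-like cells, with tumour 1, tumour 2 and normal as separate points and exact 95% Poisson bars for counting error. The 13 lower members, from Slc6a20a to Slc38a3, have both tumour points below the normal point, and the 5 higher members have both above it.

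Markers of other cell types also moved within endothelial-like cells. All 10 of 10 astrocyte markers were detected in each library, with sums of 536 and 525 CPM in tumour against 1539.9 in normal, the direction of Slc1a2, Slc1a3 and Slc6a11. Mural markers summed to 2018 and 2643 in tumour, with 9 and 9 of 9 detected, against 5792 in normal with 8 of 9 and Tagln at 0. Glial progenitor markers summed to 593 and 381 in tumour, with 10 and 10 of 10 detected, against 77.0 in normal with 6 of 10, Olig2, Sox10, Lhfpl3 and Neu4 being at 0; this is the direction of Slc38a1 and Slc38a2, which glial progenitor-like cells hold at 292 to 316 and 593 to 646. Microglia markers summed to 249.8 and 676 against 178, the direction of Slc7a7. The part of these cells in the results was not tested.

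Genes that use or answer to amino acids were described from fixed lists. Their values are over the class, whose clusters differ between the groups, and are not given within single clusters. The part of that difference in these results was not tested. In endothelial-like cells 6 of 15 tested genes of the amino acid response were higher and 1 lower, where 32.8% of all genes were called (median log2 1.33 against 0.04). The lists of glutathione (2 of 10), lysosomal amino acid sensing (3 of 14) and branched-chain amino acid use (1 of 5) had smaller shares called than all genes. Phgdh, the first enzyme of serine synthesis, had 15.8 and 19.6 CPM in tumour against 1.07 in normal (log2 4.25 ± 0.85, adjusted p = 0.00235, edgeR). Asns, asparagine synthetase, had 19.8 and 16.5 against 2.14 (log2 3.27), whereas Ddit4, an inhibitor of mTORC1, had 46.7 and 50.7 against 222 (log2 −1.95 ± 0.24, adjusted p = 8.43e-05, edgeR). The normal levels of Phgdh and Asns rest on very few molecules, since the normal sum held 935097 UMIs, so the sizes of their changes are uncertain. Of 9 tested genes of arginine and polyamine use, 4 were higher and 1 lower: Odc1, the entry enzyme of polyamine synthesis, had 211 and 205 against 25.7 (log2 3.24 ± 0.32, adjusted p = 2.42e-05, edgeR), and Nos3, endothelial nitric oxide synthase, had 49.6 and 65.4 against 139 (log2 −1.02). Glul, glutamine synthetase, had 118 and 144 against 791 (log2 −2.36 ± 0.23, adjusted p = 2.29e-05, edgeR).

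In microglia-like cells, 4 of 39 tested members were higher and 3 lower in tumour, 17.9% against 17.9% of 14812 genes (12.0% higher and 5.87% lower), so the members' share equals the background. Higher calls were 67.1% of all calls with TMM and 27.7% with library size alone. The median log2 change was −0.31 against 0.09 for all genes. Slc43a3 had 14.7 and 16.2 CPM in tumour against 1.53 in normal, where 2 UMIs were counted; the ratio was 10.3 (counting interval 2.84 to 85.2; adjusted p = 0.00797, edgeR). Slc38a10 had 85 and 128 against 47.3 (log2 1.69 ± 0.38, adjusted p = 0.0228, edgeR; 0.0544 with DESeq2). Slc7a5 had 29.7 and 19.5 against 68.7 (log2 −1.0 ± 0.27, adjusted p = 0.0405, edgeR), with both tumour libraries below normal. The neuronal Slc6a17 and the astrocytic Slc7a10 were lower, at 0.461 and 0.552 against 10.7 and at 1.04 and 0.613 against 7.63 (log2 −3.84 and −2.73). Neuron markers, all 10 of 10 detected, summed to 111 and 139.6 in tumour against 1211 in normal microglia-like cells, and astrocyte markers, 10 of 10, to 80.7 and 57.6 against 217. Their part in those 2 results was not tested.

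Slc7a11 (xCT), at chr3:49892526-50443614 on the minus strand, had 37.4 and 13.6 CPM in tumour against 3.82 in normal microglia-like cells, from 649, 442 and 5 UMIs (log2 3.19 ± 0.85, adjusted p = 0.0393, edgeR). The tumour libraries were apart from each other, and the change was 2.37 without tumour 1. The call was lost with a stricter cell filter (adjusted p = 0.0589), with doublets kept (0.0915) and at Leiden resolution 2.0 (0.142). Different clusters held most of the class in each group: cluster 5 held 662 of 725 normal cells, and clusters 1 and 4 held most tumour cells. Slc7a11 had 54.0 and 18.0 in tumour cells of cluster 1, 10.6 and 17.4 in those of cluster 4, and 1.61 and 2.41 in tumour against 4.15 in normal cells of cluster 5. Within cluster 5 alone, where 2.86% of all genes were called, Slc38a10 was the only call among 28 members tested, at 109.8 and 109 in tumour against 48.9 in normal (log2 1.36, adjusted p = 0.0429, edgeR). Slc7a5 in cluster 5 had 30.7 and 24.0 against 69.7 (log2 −1.24, adjusted p = 0.0661, edgeR) and Slc43a3 had 12.9 and 5.63 against 0.829 (log2 3.34, adjusted p = 0.240, edgeR). Slc1a5 (ASCT2, a glutamine exchanger) had 12.5 and 8.68 in tumour against 3.82 in normal over the class (log2 1.96 ± 0.54, adjusted p = 0.0439, edgeR), a call lost with library size alone, DESeq2, thinning, the stricter cell filter and in cluster 5 alone (adjusted p = 0.0662 to 0.374).

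Several well-expressed microglial members did not pass. Slc7a8 had 171 and 214 in tumour against 271 in normal, Slc7a7 54.6 and 77.4 against 70.2, and Slc6a6 281 and 277 against 269. Among the pathway lists, where 17.9% of all genes were called, 6 of 10 NRF2 targets were higher and none lower (median log2 1.78), while branched-chain amino acid use had 0 of 6 and GABA and glycine handling 1 of 7 called. Among the higher NRF2 targets was Hmox1, heme oxygenase, at 1509.8 and 949 CPM in tumour against 19.8 in normal (log2 6.44 ± 0.50, adjusted p = 0.00262, edgeR). Hmox1 was also called higher in tumour B cell-like cells (176 and 278 against 3.80 CPM) and neuron-like cells (137 and 58.4 against 2.25 CPM), and the part of RNA free in the droplets was not tested. Of 9 glutathione genes 4 were higher and none lower (median 1.57); Gclm, a subunit of the first enzyme of glutathione synthesis, had 116 and 81.4 against 19.8 (log2 2.81 ± 0.31, adjusted p = 0.00403, edgeR). The amino acid response had 5 of 16 higher and none lower. Psat1 had 85 and 115 against 9.16 (log2 3.97) and Phgdh 164 and 127 against 35.1 (log2 2.55), both enzymes of serine synthesis. List genes are given here over the class and not within single clusters, and the part of the clusters was not tested.

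Macrophage-like cells gave no call among 35 members, with 2 at an unadjusted p under 0.05 and 1.00% of all genes called; the normal sum rests on 30 cells. Slc7a11 had 113 and 54.2 CPM in tumour against 12.2 in normal, where the normal library held 1 UMI (adjusted p = 0.245, edgeR). Slc7a11 took 43.4% and 24.3% of light-chain UMIs there in tumour. Slc6a6 had 288 and 257 in tumour against 231 in normal and Slc43a2 (LAT4) 217 and 196 against 231, neither past the test.

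In neutrophil-like cells, 4 of 24 tested members were higher and 1 lower in tumour, 20.8% against 17.7% of all genes (8.45% higher and 9.20% lower), with a median log2 change of −0.03 against 0.06. Higher calls were 47.9% of all calls with TMM and 83.8% with library size alone. Slc43a2 (LAT4, a facilitator of neutral amino acids) had 101 and 108 CPM in tumour against 13.9 in normal (log2 2.28 ± 0.40, adjusted p = 0.00155, edgeR). Slc7a5 had 25.7 and 27.6 against 3.92 (log2 2.13 ± 0.58, adjusted p = 0.0215, edgeR), and its heavy chain Slc3a2 had 77.2 and 66.4 against 17.0 (log2 1.45 ± 0.40, adjusted p = 0.0228, edgeR). Slc38a1 had 57.4 and 50.6 against 11.7 (log2 1.57 ± 0.42, adjusted p = 0.0201, edgeR). Slc43a3 alone was lower, at 4.68 and 3.94 in tumour against 22.6 in normal (log2 −3.01 ± 0.59, adjusted p = 0.00319, edgeR). For these 5 called members the tumour libraries lay close together and apart from normal, which was not counted over all genes. With DESeq2 the calls of Slc7a5, Slc38a1 and Slc3a2 were lost (adjusted p = 0.129, 0.104 and 0.0860), and with doublets kept that of Slc43a2 (0.0750).

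The class is made of different clusters in the groups. Cluster 12 held 285 of 323 and 464 of 495 tumour cells but 132 of 521 normal cells, and cluster 28 held 389 normal cells. Markers of granulocyte precursors summed to 52.7 and 85.5 CPM in tumour, with 4 and 4 of 6 detected and Mpo and Ctsg at 0, against 603 in normal with 6 of 6; their part was not tested. Within cluster 12, 2 of 14 tested members were called, where 9.83% of all genes were. Slc3a2 had 96.1 and 74.3 in tumour against 4.34 in normal (log2 3.77, adjusted p = 0.0246, edgeR) in cluster 12. That normal level rests on very few molecules, since the normal sum of cluster 12 held 230224 UMIs, so the size of the change is uncertain. Slc43a2 in cluster 12 had 139 and 127 against 69.5 (log2 0.46, adjusted p = 0.509, edgeR), so its call did not hold there. Slc7a5 in cluster 12 had 26.5 and 31.5 in tumour and 0 UMIs in normal (adjusted p = 0.0648, edgeR). Within cluster 28, which held 38 and 31 tumour cells, no member of 4 tested was called, where 5.76% of all genes were, and Slc43a2 had 7.98 and 28.2 in tumour against 7.74 in normal.

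Slc7a11 was the leading light chain of neutrophil-like cells in each group, at 173 and 105 CPM in tumour against 52.2 in normal (log2 0.78 ± 0.38, adjusted p = 0.18, edgeR). It followed cluster 12, with 232 and 128 in tumour and 265 in normal cells, against 31.9 and 7.06 in tumour and 28.5 in normal cells of cluster 28. Neutrophil-like cells with at least 1000 UMIs were thinned to 1000, the others being left out. Of these, 13.1% (exact 95% interval 9.51 to 17.4) and 10.1% (7.57 to 13.1) in tumour held an Slc7a11 UMI. In normal the share was 7.03% (4.94 to 9.64). Dendritic cell-like cells of tumour 2 gave 1.32% (0.431 to 3.06) of 378 cells. Median depths of neutrophil-like cells were 2060 and 2579 UMIs in tumour and 3446 in normal.

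Of 14 amino acid response genes tested in neutrophil-like cells, 6 were higher and none lower, where 17.7% of all genes were called (median log2 1.51 against 0.06). Other lists lay near or below that share, with 1 of 8 glutathione genes, 1 of 12 genes of lysosomal sensing, 0 of 8 of arginine and polyamine use and 0 of 5 of glutamine and glutamate handling called. Atf3, a stress-induced transcription factor, had 25.7 and 57.2 CPM in tumour against 1.74 in normal (log2 3.94 ± 0.70, adjusted p = 0.00162, edgeR), and Cebpb had 2334 and 1595 against 258 (log2 2.31). Ddit4 had 79.6 and 34.2 against 2.61 (log2 3.75 ± 0.66, adjusted p = 0.00159, edgeR), the opposite direction to that in endothelial-like cells. These list genes too are given over the class and not within single clusters, and the part of the clusters was not tested.

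**Figure D4:**
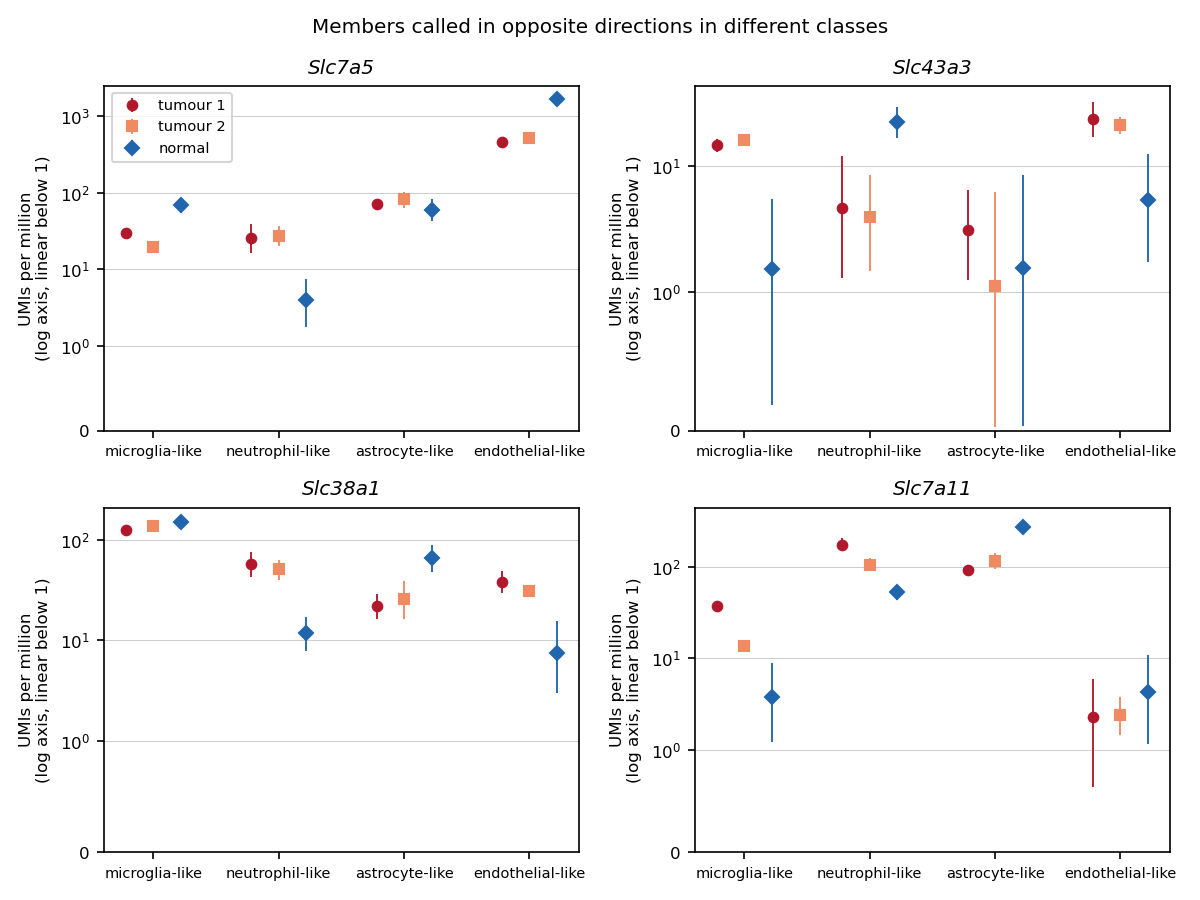
CPM (log axis, linear below 1; bars are exact 95% Poisson intervals) of Slc7a5, Slc43a3, Slc38a1 and Slc7a11 in microglia-like, neutrophil-like, astrocyte-like and endothelial-like cells of tumour 1, tumour 2 and normal. Slc7a5 lies below normal in tumour endothelial-like (454 and 527 against 1674) and microglia-like cells but above it in neutrophil-like cells (25.7 and 27.6 against 3.92), and Slc43a3 shows the reverse.

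Where calls went opposite ways in a pair of classes, the difference of the tumour changes was itself tested with edgeR over all genes. This background was 12.2% of genes called for endothelial-like minus neutrophil-like, 15.8% for microglia-like minus neutrophil-like, 10.8% for endothelial-like minus astrocyte-like, 3.53% for neutrophil-like minus astrocyte-like, 2.56% for microglia-like minus astrocyte-like and 4.59% for microglia-like minus B cell-like cells. Slc7a5 and Slc43a3 passed in both pairs with neutrophil-like cells, Slc38a1 in endothelial-like and neutrophil-like cells against astrocyte-like cells, Slc7a11 in microglia-like against astrocyte-like cells, and Slc1a5 in microglia-like against B cell-like cells. The pairs were picked for opposite calls of these members in the same sums. A pass was therefore likely beforehand and gives no separate support.

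Astrocyte-like cells gave few calls. Of 23 members tested, none was higher and 2 were lower, 8.70% against 7.05% of all genes (4.02% higher and 3.03% lower), with a median log2 change of −0.04 against 0.01. Slc7a11 had 91.2 and 114 CPM in tumour against 271 in normal (log2 −1.47 ± 0.24, adjusted p = 3.82e-07, edgeR). Slc38a1 had 21.8 and 25.8 against 66.2 (log2 −1.55 ± 0.36, adjusted p = 0.000816, edgeR), but when doublets were kept and cells clustered again its change was 0.49 (adjusted p = 0.267). With sums thinned to equal depth neither passed (adjusted p = 0.421 each, edgeR). The leading carriers did not pass: Slc1a2 changed by log2 −0.04 ± 0.18 (adjusted p = 0.931), Slc6a11 by −0.44 ± 0.19 (0.141) and Slc1a3 by −0.52 ± 0.19 (0.0772, edgeR). Hmox1 had 80.1 and 30.2 in tumour against 6.15 in normal (log2 3.21), and Castor1, a cytosolic arginine sensor, had 67.2 and 50.4 against 15.4 (log2 1.92), both past the test.

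Neuron-like cells had 35 members tested and 1 call, 2.86% against 4.23% of all genes. Slc36a1 had 15.8 and 23.3 CPM in tumour against 58.9 in normal (log2 −1.47 ± 0.42, adjusted p = 0.0198, edgeR), lost with library size alone, DESeq2 and thinning (adjusted p = 0.452, 0.716 and 0.267). The vesicular monoamine carrier Slc18a2, no member of the families, had 28 and 33.9 in tumour against 160.1 in normal neuron-like cells (log2 −2.27, past the test). In B cell-like cells 1 of 11 members was called, 9.09% against 8.35%. Slc1a5 had 0 UMIs in 20 cells of tumour 1, which allows up to 58.6 CPM, 63 in tumour 2 and 209 in normal (log2 −1.90 ± 0.57, adjusted p = 0.0140, edgeR), and 4 alternatives lost the call. Without tumour 2 the change rests on the 0 UMIs of tumour 1 alone (fitted log2 −8.91). Dendritic cell-like, T or NK cell-like and choroid plexus-like cells gave no edgeR call among 13, 10 and 3 members, with 3, 1 and 1 at an unadjusted p under 0.05, where 10.4%, 4.25% and 1.80% of all genes were called. DESeq2 called 2 members and kept doublets 14 over the 7 smaller classes together, against 4 of 130 tests by edgeR.

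Between classes of the tumour libraries, glial progenitor-like cells were first set against astrocyte-like cells, with library as a block. Of 43 members tested, 8 were higher and 17 lower in progenitor-like cells, 58.1% against 55.1% of all genes (28.6% higher and 26.5% lower), a share near the background. The median log2 difference was −0.38 against 0.09; 3 members had no astrocyte-like UMI, and at 3 counts the median was the same. Values below are tumour 1 and tumour 2 of the progenitor-like cells and then of the astrocyte-like cells.

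The members that progenitor-like cells held less of included carriers of transmitter clearance. Slc7a10 had 2.88 and 3.51 CPM in progenitor-like against 680.0 and 967 in astrocyte-like cells (log2 −8.11 ± 0.30, adjusted p = 2.08e-16, edgeR). Slc6a11 had 12.6 and 14.6 against 2084 and 1792 (log2 −7.22 ± 0.38, adjusted p = 1.98e-14, edgeR). Slc1a2 had 379 and 298 against 6493 and 5944 (log2 −4.34 ± 0.45, adjusted p = 6.50e-09, edgeR), and was still the leading glutamate carrier of progenitor-like cells with 60.0% and 55.5% of that set. Slc6a9 had 32.2 and 29.4 against 427 and 546 (log2 −4.09), and Slc7a11 had 9.74 and 4.04 against 91.2 and 114 (log2 −4.09; −4.95 without tumour 1 and −3.33 without tumour 2). The classes did not overlap for these 5 called members, but the share of all genes without overlap was not counted. Slc3a2 had 146 and 98.5 against 593 and 481 (log2 −2.25 ± 0.22, adjusted p = 3.57e-09, edgeR).

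The Slc38a carriers, many of which move glutamine, went both ways: of 8 tested, 3 were higher and 3 lower in progenitor-like cells (median log2 −0.36). Slc38a3 had 49.2 and 44.6 CPM in progenitor-like against 162 and 218 in astrocyte-like cells (log2 −2.11 ± 0.22, adjusted p = 9.84e-09, edgeR), and Slc38a6 and Slc38a9 were lower by log2 −1.38 and −1.54. Slc38a2 had 593 and 646 CPM in progenitor-like against 36.5 and 67.2 in astrocyte-like cells (log2 3.55 ± 0.27, adjusted p = 2.39e-11, edgeR), and Slc38a1 had 292 and 316 against 21.8 and 25.8 (log2 3.58 ± 0.26, adjusted p = 1.34e-11, edgeR). The ranges do not overlap for either of these 2 called members, which was not counted over all genes. Slc7a1 had 63.7 and 61.0 against 7.12 and 4.48 (log2 3.17 ± 0.44, adjusted p = 1.05e-06, edgeR), and Slc6a6 had 86.6 and 67.6 against 11.6 and 13.4 (log2 2.55). Slc1a1 had 73.7 and 70.1 against 3.12 and 0 (log2 4.98 ± 0.53, adjusted p = 1.44e-08, edgeR), the 0 allowing up to 3.36 CPM. Slc6a15 had 36.1 and 35.2, where the astrocyte-like sums held 2 and 0 UMIs and the ratio was 56.1 (counting interval 15.5 to 464). Without tumour 1 the fitted changes of Slc1a1 and Slc6a15 rest on 0 astrocyte-like UMIs (12.37 and 11.38). Slc7a6 and Slc38a10 were also higher, by log2 1.63 and 0.79.

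Of 9 tested genes of glutamine and glutamate handling, 4 were higher and 3 lower in progenitor-like cells, where 55.1% of all genes were called. Glul had 119.9 and 132 CPM in progenitor-like against 2006 and 2197 in astrocyte-like cells (log2 −4.17 ± 0.29, adjusted p = 4.59e-12, edgeR). Of 15 amino acid response genes tested, 10 were higher in progenitor-like cells and 1 lower against the same background (median log2 0.89 against 0.09), with Asns at 82.3 and 55.9 against 4.01 and 7.84 (log2 3.75 ± 0.43, adjusted p = 4.80e-08, edgeR). Castor1 had 0.472 and 0.488 against 67.2 and 50.4 (log2 −7.06 ± 0.35, adjusted p = 4.97e-15, edgeR). Genes of these lists were not left out of the clustering that made the classes, so their values between classes are a description.

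Set against microglia-like cells, progenitor-like cells had 18 of 43 members higher and 15 lower, 76.7% against 66.0% of all genes (33.6% higher and 32.4% lower), with a median log2 difference of 0.30 against 0.02. Slc7a8 had 2.81 and 4.79 CPM in progenitor-like against 171 and 214 in microglia-like cells (log2 −6.07 ± 0.25, adjusted p = 1.46e-16, edgeR). Slc7a7 had 0.472 and 1.27 against 54.6 and 77.4 (log2 −6.71 ± 0.30, adjusted p = 4.51e-16, edgeR). Slc43a2, Slc36a1 and Slc6a6 were lower as well, Slc6a6 at 86.6 and 67.6 against 281 and 277 (log2 −2.24). Slc7a5 was higher in progenitor-like cells, at 75.8 and 54.2 against 29.7 and 19.5 (log2 1.05 ± 0.23, adjusted p = 0.000313, edgeR), as were Slc38a2 at 593 and 646 against 159.6 and 121 (log2 1.76) and Slc6a8, the creatine carrier, at 37.0 and 26.0 against 5.08 and 4.48 (log2 2.31).

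Within glial progenitor-like cells, clusters led by hypoxia, S phase, G2/M and matrix markers were each set against the remaining clusters of the class in the same libraries. These clusters were made from the same cells with the members left out, but genes of the pathway lists were not left out, so their values by state are a description. Values are tumour 1 and tumour 2 of the state and then of the remaining cells. In hypoxic cells, 2 of 43 members were higher and 1 lower, 6.98% against 8.01% of all genes (5.30% higher and 2.71% lower). Slc38a6 had 20.3 and 24.5 CPM in hypoxic against 11.5 and 13.1 in remaining cells (log2 0.98 ± 0.15, adjusted p = 0.00161, edgeR), Slc1a4 had 51.7 and 31.5 against 31.1 and 28.1 (log2 0.57 ± 0.12, adjusted p = 0.0112, edgeR), and Slc38a3 had 31.2 and 37.6 against 56.9 and 54.8 (log2 −0.59 ± 0.10, adjusted p = 0.00464, edgeR). Without the library block all 3 missed the threshold (adjusted p = 0.0779, 0.490 and 0.0888).

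Of the amino acid response, 7 of 16 genes were called higher in hypoxic cells and none lower, where 8.01% of all genes were called (median log2 0.25 against 0.01). Ddit4, itself a hypoxia target, had 141 and 120.3 CPM against 49.2 and 54.4 (log2 1.44 ± 0.13, adjusted p = 4.55e-05, edgeR), and Ddit3 (CHOP) had 114 and 31.7 against 19.3 and 18.8 (log2 1.91), with tumour 1 far above tumour 2. Glul had 202 and 174 against 98.4 and 105 (log2 0.99). S phase cells gave no call by edgeR among 43 members, where 5.32% of all genes were called; 7 members had an unadjusted p under 0.05 and DESeq2 called 2.

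In G2/M cells 9 of 43 members were lower and none higher, 20.9% against 32.7% of all genes (17.2% higher and 15.5% lower). Slc1a1 had 52.3 and 46.2 CPM in G2/M against 83.4 and 80.9 in remaining cells (log2 −0.66 ± 0.10, adjusted p = 0.000409, edgeR), and Slc38a9, the lysosomal arginine sensor, had 26.5 and 19.7 against 38.2 and 35.5 (log2 −0.60 ± 0.12, adjusted p = 0.00260, edgeR). Slc7a4, Slc36a1, Slc38a7, Slc38a3, Slc38a10 and Slc36a4 were among the other lower members, by log2 −0.35 to −1.46. Without the library block Slc1a1 alone passed.

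Matrix cells, 103 and 143 in number, had the most members called among the states, with 8 of 43 members higher and 5 lower, 30.2% against 17.5% of all genes (11.0% higher and 6.55% lower). Slc1a5 had 31.9 and 24.8 CPM in matrix against 3.96 and 4.35 in remaining cells (log2 2.80 ± 0.24, adjusted p = 1.13e-05, edgeR), and Slc6a11 had 74.4 and 63.5 against 12.8 and 12.2 (log2 2.50 ± 0.19, adjusted p = 5.78e-06, edgeR). Slc6a8 had 63.3 and 49.6 against 36.2 and 25.2 (log2 0.97 ± 0.11, adjusted p = 0.000133, edgeR). These 3 called members were above the remaining cells in both libraries with no overlap, which was not counted over all genes. Slc6a19 had 16 and 55.9 against 4.13 and 3.88 (log2 3.22 ± 0.35, adjusted p = 7.20e-05, edgeR), tumour 2 being far higher, and the change was 3.85 without tumour 1 and 2.05 without tumour 2. Slc7a10 had 9.36 and 21.9 against 3.25 and 2.50 (log2 2.51 ± 0.33, adjusted p = 0.000271, edgeR) and missed the threshold with doublets kept (log2 1.17, adjusted p = 0.0914). Its change was 3.13 without tumour 1 and 1.62 without tumour 2. Slc43a1 (LAT3), Slc43a3 and Slc6a17 were higher by log2 2.16, 1.82 and 0.97, and Slc43a1 by 1.26 without tumour 1 and 2.84 without tumour 2.

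The lower members of matrix cells were Slc38a3 at 27.0 and 30.8 against 56.9 and 54.8 (log2 −0.87 ± 0.14, adjusted p = 0.00116, edgeR), Slc7a5 at 56.7 and 38.8 against 78.4 and 59.7 (log2 −0.48), Slc1a1, Slc7a1 and Slc38a1. Astrocyte markers, 10 of 10 detected, summed to 1274 and 1069 CPM in matrix against 524 and 646 in remaining cells, and glial progenitor markers, 10 of 10, to 3002 and 2816 against 5316 and 4946. The dendritic cell list summed to 28228 and 6901 against 2482 and 1540.2, with 4 and 5 of 9 detected in matrix cells and Xcr1, Clec9a and Cd209a at 0 in both. The dendritic cell list also holds Cst3, and which of its genes carried the sum is not given here, so the sum alone does not name dendritic cells. The part of other cell types in the result was not tested. Glul had 230.2 and 202 against 98.4 and 105 (log2 1.16 ± 0.12, adjusted p = 4.12e-05, edgeR).

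**Figure D5:**
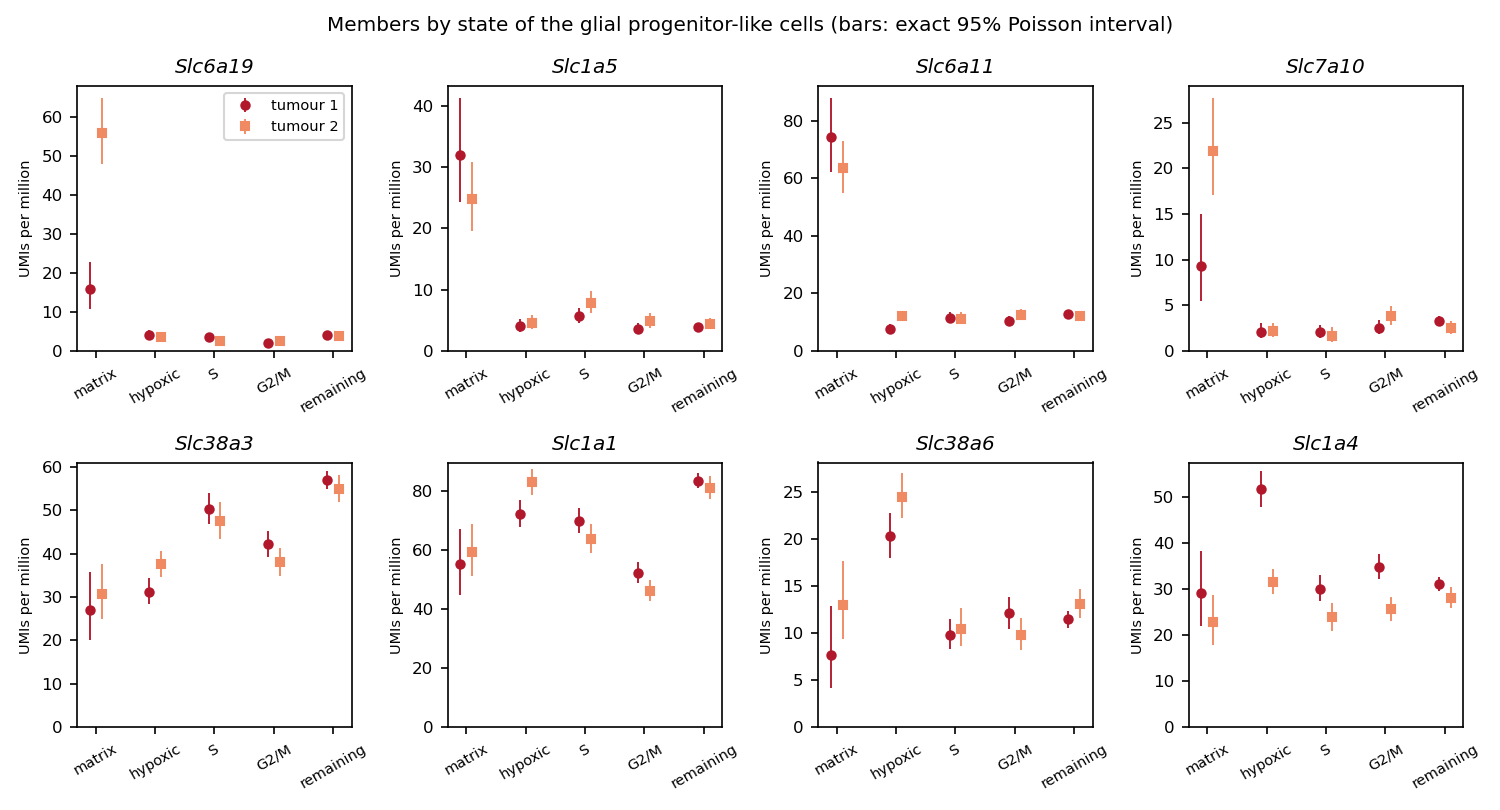
CPM of 8 members in the matrix, hypoxic, S phase, G2/M and remaining clusters of glial progenitor-like cells, with 1 point for each tumour library and exact 95% Poisson bars. Slc1a5 and Slc6a11 stand apart in matrix cells, and Slc6a19 does so with tumour 2 (55.9) well above tumour 1 (16).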

How the data were processed

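Per the file headers, the authors made the deposited matrices with Cell Ranger 6.1.2. The build was mm10, per the submitters' processing notes. The deposited values are raw UMI counts, in whole numbers, of each gene in each barcode. Members and gene lists were chosen with earlier results of these data known.

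Barcodes with at least 500 UMIs, at least 300 genes and at most 15% mitochondrial UMIs were kept. Scrublet (expected rate 8%) in scanpy 1.11.5 removed 374 doublets from tumour 1, 254 from tumour 2 and 50 from normal. Clustering left out the members and used 2000 variable genes, 30 principal components, 15 neighbours and Leiden at resolution 1.0 (igraph 0.11.9), with no integration. For each cluster the mean log2 excess of 19 marker lists over the average cluster was taken (0.05 added to levels). A name needed an excess of 1 with at least 3 markers in 10% of cells, and a state 0.5. A cluster past this stayed unnamed where another list had as many or more markers among its top 10 genes. So did a cluster with a low UMI count and no own marker among those genes. Such clusters, in no class, were best matched by glial progenitor (961 and 425 cells), astrocyte (251) and granulocyte precursor markers (332).

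Counts were summed per library and class with at least 20 cells and tested with edgeR 4.0.16 in R 4.3.3 (quasi-likelihood, filterByExpr, TMM, Benjamini-Hochberg over all genes tested, threshold 0.05). Tumour against normal has 1 residual degree of freedom, given by the tumour pair alone. The single normal library is taken to vary as that pair does, and p-values measure only the spread between these libraries. The prior degrees of freedom were infinite in cluster 28 alone, in cluster 25 of the finer clustering (Leiden 2.0) and in astrocyte-like, choroid plexus-like and B cell-like cells. The spread used there is that of all genes together. Tests of the difference between classes also have 1 residual degree of freedom, and their prior degrees of freedom are not given here. Class and state fits kept library as a block, because classes of 1 library come from the same mouse. Intervals are 95%, exact, and cover counting error only. The scripts were tested on simulated data. Alternatives were other scalings, no low-count filter, DESeq2 1.42.0, stricter or no cell filters, thinning, Leiden 2.0, members allowed in clustering, doublets kept and each tumour library left out. After the data were seen, single clusters (5, 12, 28, and 25 of Leiden 2.0 with at least 10 cells a library) and tests of the difference between classes were added. Named genes are called members (up to 15 by size of change), the main carriers of each role whatever their values, the top members of each class and called genes of the 10 pathway lists. Some genes are not reported here. Positions are from GENCODE (GRCm38), promoters from RefSeq.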

Additional observations from a re-analysis of the deposited data

Results flagged for a closer look

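Calls went opposite ways in 6 pairs of classes. In these pairs alone the difference of the tumour changes was itself tested with edgeR over all genes (added after the data were seen). These tests have 1 residual degree of freedom. They use the sums that gave the opposite calls, so they size the difference and give no separate support for it. The change of Slc43a3 was higher by log2 5.26 ± 0.795 (SE) in endothelial-like than in neutrophil-like cells (adjusted p = 5.18e-05, edgeR) and by 6.82 ± 0.945 in microglia-like than in neutrophil-like cells (adjusted p = 5.85e-11, edgeR). That of Slc7a5 was lower there, by log2 −3.72 ± 0.510 for endothelial-like minus neutrophil-like cells (adjusted p = 1.58e-05, edgeR) and −3.27 ± 0.594 for microglia-like minus neutrophil-like cells (adjusted p = 1.48e-06, edgeR). Neutrophil-like cells come mostly from cluster 12 in tumour and cluster 28 in normal, and microglia-like cells from clusters 1 and 4 in tumour and cluster 5 in normal.

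For Slc38a1 the change exceeded that in astrocyte-like cells by log2 3.85 ± 0.627 in endothelial-like cells (adjusted p = 1.20e-07, edgeR) and by 2.96 ± 0.570 in neutrophil-like cells (adjusted p = 0.000443, edgeR). For Slc7a11 it was log2 4.50 ± 0.696 higher in microglia-like than in astrocyte-like cells (adjusted p = 0.00134, edgeR). For Slc1a5 it was log2 3.65 ± 0.931 higher in microglia-like than in B cell-like cells (adjusted p = 0.00442, edgeR), where the 20 B cell-like cells of tumour 1 held 0 UMIs. As given above, Slc7a11 was not higher in tumour within microglia-like cluster 5, and its microglia-like call was lost under several alternatives. The astrocyte-like calls of Slc7a11 and Slc38a1 were lost with thinned sums, and that of Slc38a1 changed direction with doublets kept.

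A cluster that no comparison of classes used also carried Slc7a11. It stayed unnamed and was led by Hmox1, Spp1 and Ftl1, with 406 and 317 tumour cells and 4 normal cells. Slc7a11 had 217 CPM in tumour 1 (559 UMIs) and 143 in tumour 2 (353 UMIs), above the 37.4 and 13.6 of microglia-like cells in those libraries. With 4 cells the normal library gave no level. Slc3a2 had 233 and 218 there and Slc7a8 had 82.5 and 104.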

How the results depend on the processing

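The counts of called members over whole libraries (16) and in endothelial-like cells (18) stayed within 1.5 times under each alternative run, except for endothelial-like cells in cluster 25 of Leiden 2.0 alone (11). In microglia-like cells (7) the count was 13 with library size alone (3 higher, 10 lower), 15 without the low-count filter, 11 thinned, 3 with the stricter cell filter and 1 in cluster 5 alone. In neutrophil-like cells (5) it was 2 with DESeq2, 2 at Leiden 2.0, 2 in cluster 12 alone and 0 in cluster 28 alone, where few cells remain. The 7 smaller classes together (4) gave 2 with DESeq2, 0 thinned and 14 with doublets kept. Thinning left 11 of 12 tested members for progenitor-like minus astrocyte-like cells (25) and 6 of 12 for progenitor-like minus microglia-like cells (33), because fewer genes passed the filter.

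Hypoxic cells (3) gave 6 with library size alone, without the low-count filter or with DESeq2, 1 thinned, 5 with the stricter filter and 7 with doublets kept. S phase (0) gave 2 without the filter, 2 with DESeq2, 3 with doublets kept and 1 at Leiden 2.0. G2/M (9) gave 5 thinned and 2 with members allowed in clustering, and matrix (13) gave 6 thinned, 8 at Leiden 2.0 and 6 with members in clustering. With no replicate block the states gave 0 (hypoxic), 1 (G2/M) and 5 (matrix) calls, where the block pairs classes of the same mouse. No paired analysis was possible because tumour against normal shares fewer than 2 library numbers.

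Library size alone moved the median log2 change of all genes to −0.42 from 0.14 over whole libraries, to −0.41 from 0.09 in microglia-like cells, to 0.68 from 0.06 in neutrophil-like cells and to −0.19 from 0.04 in endothelial-like cells. In dendritic cell-like cells higher calls were 28.2% of all calls with it against 60.3% with TMM, and in macrophage-like cells 4.00% against 49.2%. No called member changed direction under it. Over the single called members, 3 changed direction: Slc38a1 in astrocyte-like cells with doublets kept (log2 0.49, adjusted p = 0.267, edgeR), and in endothelial-like cells of cluster 25 alone Slc1a2 (log2 0.03, adjusted p = 0.957, edgeR) and Slc38a2 (log2 −0.85, adjusted p = 0.0189, edgeR); the cause was not tested. DESeq2 lost 17 of 133 calls, thinning 23 of 91 and members in clustering 17 of 117. Leaving out tumour 1 or tumour 2 leaves no residual degree of freedom, so it gives values only: 38 and 31 of 133 moved by over 1 SE and 0 changed direction.

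Unthinned and over all cells of the class, 38.7% and 50.0% of tumour and 94.4% of normal endothelial-like cells held an Slc6a6 UMI. At 500 UMIs the shares were 9.09% in tumour 2 and 54.2% in normal. For Slc7a11 in neutrophil-like cells the unthinned shares were 22.6% and 17.0% in tumour and 15.9% in normal, and at 500 UMIs 7.74% and 4.44% in tumour and 4.80% in normal. Depth limits the small classes, where 1 UMI of a normal class of 30 cells can exceed 10 CPM.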

Other observations

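Fibroblast-like cells, which had too few tumour 1 cells (9) to be summed, were the class where a glutamine carrier ranked among the most abundant transcripts. Slc38a2 had 7058 CPM in 30 cells of tumour 2 and 6183 in 40 cells of normal, at ranks 10 and 14 among all genes. All 63 members together reached 8298 in tumour 2 and 8524 in normal. Slc7a2 had 223 in tumour 2 and 343 in normal there, against 59.8 and 43.9 in mural-like cells of the tumour libraries. Oligodendrocyte-like cells of the normal library, 93 in number, held Slc6a6 at 336 and Slc6a9 at 152 CPM, and no tumour library had enough of these cells to compare. In mural-like cells, which the normal library lacked, Slc1a5 had 133 and 42.3 and Slc7a5 193 and 116 in tumour 1 and tumour 2.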
